A study of Mus musculus with 8 samples.

Results

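The matrix metalloproteases (Mmp), the ADAMTS proteases, the ADAMTS-like proteins and the tissue inhibitors of metalloproteases (Timp) were compared between the WT and the quadruple KO retina. Members were all genes whose symbol is Adamts, Adamtsl, Mmp or Timp followed by a number, which gave 34 of the 18058 genes in the deposited table. They comprised 7 ADAMTS genes whose products cleave lecticans, 9 other ADAMTS genes, 5 ADAMTS-like genes, 10 Mmp genes and 3 Timp genes. Of 49 such genes listed for the mouse, 15 had no row and were not analysed here, namely Adamts13, Adamts14 and Adamts19, 11 Mmp genes and Timp1. All 34 members averaged at least 10 normalized counts over the 8 libraries and were among the 17636 genes tested, although Timp4 passed this minimum only with KO A included.

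Retinae were taken from adult mice, with 4 WT libraries and 4 quadruple KO libraries that were each named A to D. WT mice came from the inbred background strain 129S2/SvPasCrl. The quadruple KO mice carried knockout constructs of Bcan (brevican), Ncan (neurocan), Tnc (tenascin-C) and Tnr (tenascin-R) that had been combined by crossing single KO lines, and these mice and their libraries are called KO below. By the design text the samples came from 4 mice per genotype, whereas the methods speak of pooling retinae before RNA extraction without numbers, so that the mice behind each library are not certain. The age in weeks and the sex of the mice behind each library were not given in the sources used here. The mice of the genotypes were not stated to be littermates, and genotype and breeding origin cannot be told apart.

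Lecticans are chondroitin sulfate proteoglycans that bind hyaluronan and, through their C-terminal domain, tenascins. Brevican and neurocan are lecticans of the nervous system, and ADAMTS proteases cut lecticans between their globular domains. Matrix metalloproteases cleave a wide range of matrix and cell surface proteins, and Timp proteins block the active site of these proteases. In the eye, Timp3 is known as a matrix-bound inhibitor of Bruch's membrane below the retinal pigment epithelium. Since the quadruple KO removes substrates of these enzymes, the comparison asks whether the transcripts of the enzymes and inhibitors differ in the KO retina. The loss of brevican and neurocan cannot be told apart from that of tenascin-C and tenascin-R.

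To show the genes on which the comparison turns most, the 250 bases upstream of 3 start sites on GRCm39 are given. The start sites are those of canonical GENCODE transcripts, and the bases run in the direction of transcription. They belong to Timp2 (chr11:118246364-118246613, minus strand) and Adamtsl5 (chr10:80184933-80185182, minus strand), which had the smallest p-values among the members, and to Adamts1 (chr16:85600010-85600259, minus strand), the lectican-cleaving member with the highest level per length. Capitals mark matches on either strand to the GC box GGGCGG, to the AP-1 site TGACTCA and to the TATA box TATAAA. These are letters of the reference genome and not of the strain 129S2/SvPasCrl.
Timp2: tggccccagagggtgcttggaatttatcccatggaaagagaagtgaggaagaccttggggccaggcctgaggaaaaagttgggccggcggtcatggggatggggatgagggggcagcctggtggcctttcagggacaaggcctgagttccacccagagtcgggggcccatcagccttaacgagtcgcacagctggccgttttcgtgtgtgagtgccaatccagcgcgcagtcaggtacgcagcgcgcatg
Adamtsl5: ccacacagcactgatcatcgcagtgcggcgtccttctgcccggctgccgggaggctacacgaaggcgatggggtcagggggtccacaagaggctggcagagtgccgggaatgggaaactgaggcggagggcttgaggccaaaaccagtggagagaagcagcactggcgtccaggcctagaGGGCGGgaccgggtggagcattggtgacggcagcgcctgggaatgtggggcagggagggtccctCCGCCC
Adamts1: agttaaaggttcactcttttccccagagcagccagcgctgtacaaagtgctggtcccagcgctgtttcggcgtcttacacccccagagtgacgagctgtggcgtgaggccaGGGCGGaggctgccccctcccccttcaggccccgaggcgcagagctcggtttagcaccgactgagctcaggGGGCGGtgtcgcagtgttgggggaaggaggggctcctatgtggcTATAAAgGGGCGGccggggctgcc
The Timp2 sequence held none of the 3 motifs, Adamtsl5 held 2 GC boxes, and Adamts1 held 3 GC boxes and a TATA box. Most of the Timp2 sequence lies inside the annotated gene, which reaches to 118246566, because the canonical transcript starts further in. Sequences of some other members also lie inside their genes, such as that of Adamtsl1 (from 85971675, gene from 85432409). Across the members, 17 of 34 such sequences (50.0%) held a GC box, compared with 36.3% of the 21757 such sequences of protein-coding genes. The AP-1 site was found upstream of Adamts3, Mmp28 and Mmp9 (8.82% of members, 4.03% of all), and the TATA box upstream of 4 members, Adamts1, Adamts3 and Adamtsl1 among them (11.8% of members, 11.9% of all). The median GC content was 61.2% for the members and 53.2% for all sequences.

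The targeted genes were inspected first. Ncan had 569 to 789 normalized counts in WT and at most 0.853 in the KO, which is about the value of 1 read. Bcan had 197 to 327 in WT and 11.5 to 22.1 in the KO. Tnr had 5578 to 6317 and 2374 to 2580, respectively. Tnc transcripts remained (881 to 1592 in WT and 1024 to 1249 in the KO), with a log2 fold change of -0.07 (limma adjusted p = 0.83), so that the level over the whole gene did not check the label for Tnc. The study itself reported that part of the Tnc sequence was lost in the KO in its exon view. It also reported no Tnc protein in the postnatal KO retina by western blot. Means are given ± SD over the n = 4 libraries of a genotype. A normalized count is the estimated count of reads of a gene divided by the DESeq2 normalization factor of its library.

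By estimate, depth was lower in WT A, WT B and WT C than in all KO libraries, while WT D lay within the KO range. From the spacing of low values, of which 49.3% to 74.2% per library fitted, 1 read was estimated to be worth 0.711 to 1.753 normalized counts. This gave estimates of 24.1 M to 40.3 M reads per WT library and 38.7 M to 52.3 M per KO library. WT B and WT C had the lowest estimates and stood apart from WT A and WT D across the table. Both lay on the same side of WT A and of WT D for 17 members, above in 9 (26.5%) and below in 8 (23.5%), against 35.1% and 35.8% of all genes tested. The coefficient of variation was higher among WT than among KO libraries in 25 of 34 members (73.5%) and in 83.8% of all genes tested. Values that rest on these libraries are therefore also given with the KO set against only WT A and D. Since WT B and WT C were left out because of these same data, which narrows the spread of WT, the p-values of that comparison are only descriptive.

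Among the members, Timp2 and Timp3 were the most abundant transcripts per length, both in WT and in the KO. On the scale of normalized counts per kb of the canonical transcript, Timp2 had a level of 618 in WT and 831 in the KO, and Timp3 had 477 and 463. Adamts3 had the highest level of the proteases with 258 and 244, followed by Mmp24 with 193 and 206. Mmp9 (184 and 162), Adamts1 (151 and 170), Mmp14 (149 and 155) and Adamts5 (123 and 149) came next in WT. At the low end, Timp4 had a level of 1.59 in WT and 2.10 in the KO. In bulk tissue, fewer cells of a type and less RNA per cell cannot be told apart.

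**Figure D1:**
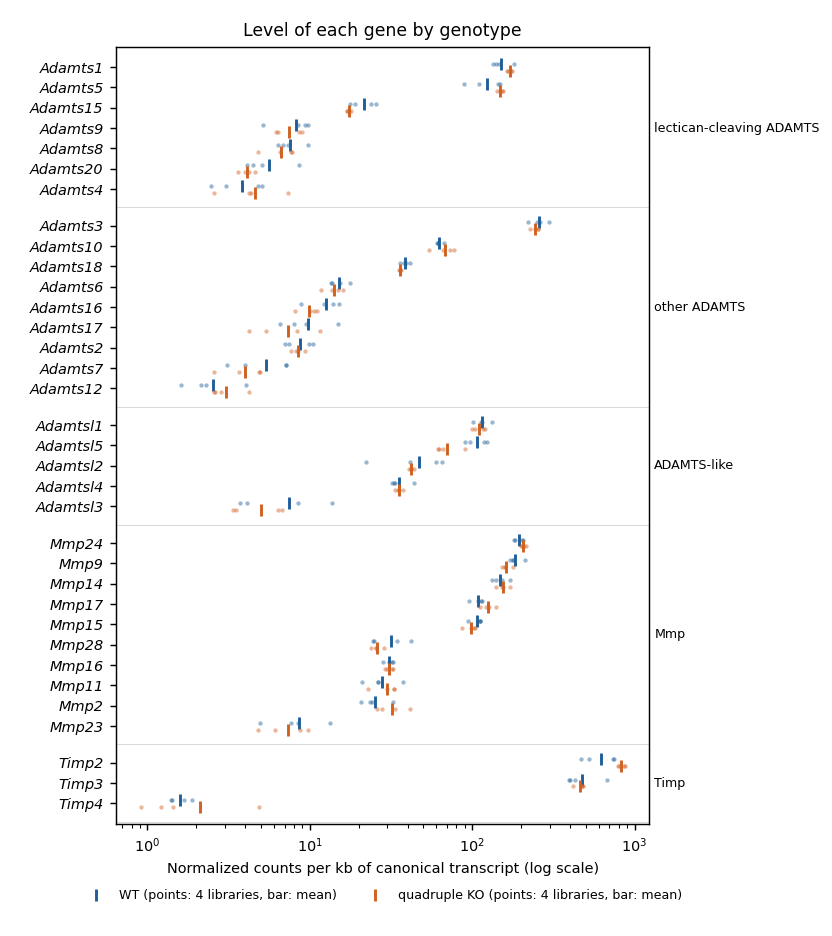
Level of the 34 genes in normalized counts per kb of canonical transcript (log axis), with the 4 WT libraries in blue and the 4 KO libraries in orange as points and the means as vertical bars. Timp2 (618 in WT, 831 in the KO) and Timp3 (477 and 463) lie highest and Timp4 (1.59 and 2.10) lowest.

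Summed per kb over each class, the lectican-cleaving ADAMTS genes reached 320 ± 34.0 in WT and 359 ± 11.0 in the KO. The other ADAMTS genes reached 413 ± 30.7 and 394 ± 14.4, and the ADAMTS-like genes 313 ± 26.5 and 262 ± 20.1. The Mmp sum was 866 ± 24.5 in WT and 872 ± 15.8 in the KO, a gap below the spread of either genotype. The Timp sum was 1097 ± 257 and 1296 ± 61.8, of which Timp2 contributed 56.3% in WT and 64.1% in the KO. Single genes carried 2 other classes, since Adamts3 made up 62.4% of the other ADAMTS genes in WT and Adamts1 made up 47.1% of the lectican-cleaving genes.

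None of the 34 members was called between the genotypes with limma at a Benjamini-Hochberg adjusted p under 0.05, while 77 of 17636 genes (0.437%) were called. The lowest adjusted p among the members was 0.30. Before adjustment, 2 members (5.88%) had a limma p under 0.05, namely Timp2 and Adamtsl5, which is below the 16.6% of all genes tested. In 1 member, Timp2, the libraries of the genotypes did not overlap, compared with 9.74% of all genes. The log2 fold change was above 0 for 14 members and below 0 for 20, and the median log2 fold change was -0.06, compared with 0.00 over all genes tested. Relative to WT A and D only, no member was called (0.563% of all genes), and 4 members had an unadjusted limma p under 0.05 (11.6% of all genes), namely Timp2, Mmp17, Adamtsl5 and Adamts12.

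The precision of these comparisons differed with the level of the gene. For 29 of the 34 members the 95% interval of the log2 fold change lay within 1 log2 unit of 0, and for 15 within 0.5. All 19 members that averaged at least 100 normalized counts were within 1 log2 unit. The 5 members with wider intervals were Adamts4, Adamts7, Adamts17, Adamtsl3 and Timp4, for which the difference was not bounded within 1 log2 unit at this depth and spread.

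**Figure D2:**
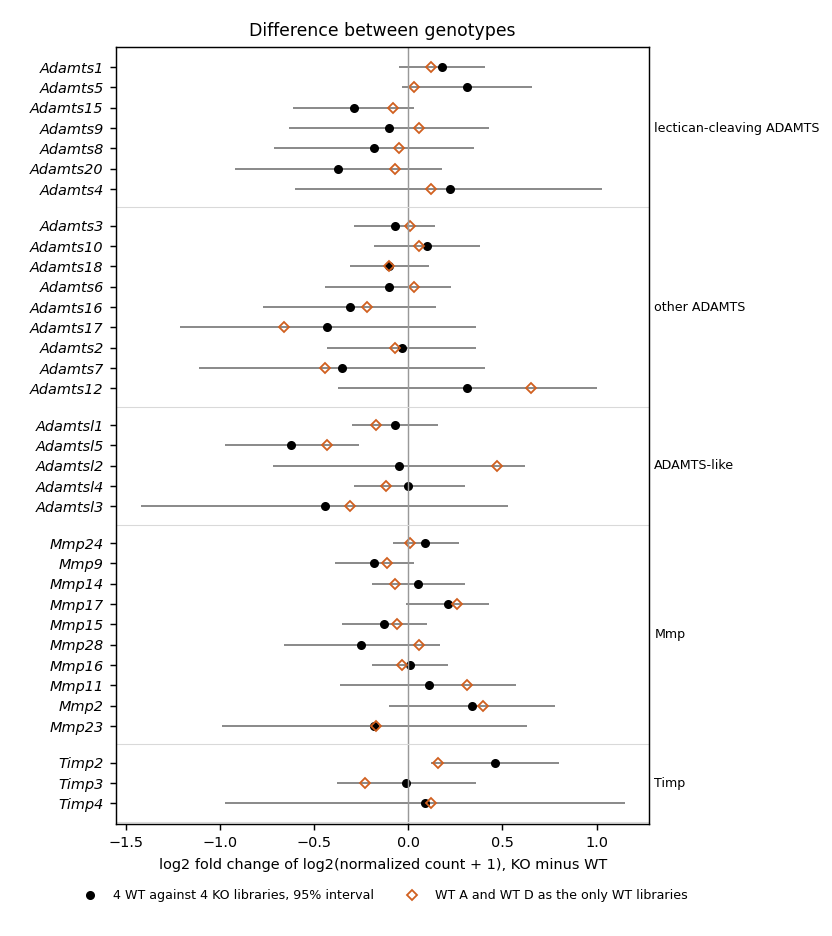
Log2 fold change of each gene, KO minus WT, on log2(normalized count + 1). Black points with 95% intervals compare 4 with 4 libraries and open orange diamonds give the value relative to WT A and D only. The intervals of Timp2 (0.12 to 0.80) and Adamtsl5 (-0.97 to -0.26) lie off 0, and neither gene was called by limma after adjustment.

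The inhibitors were described first. Timp2 encodes a secreted inhibitor that also takes part in the activation of pro-Mmp2 by Mmp14. Its normalized counts were 2749, 1963, 1750 and 2803 in WT A to D and 2954, 3223, 3263 and 3021 in KO A to D. No KO library was as low as any WT library, and the lowest values were those of WT B and WT C.

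The Timp2 mean was 2316 ± 539 in WT and 3115 ± 151 in the KO. This is a log2 fold change of 0.46 with a 95% interval of 0.12 to 0.80 (standard error 0.15). It was not called (limma Benjamini-Hochberg adjusted p = 0.30, unadjusted p = 0.014), and the two-sided exact permutation test gave p = 0.0286, the smallest that 4 against 4 libraries allow. Relative to WT A and D only the log2 fold change was 0.16 (limma unadjusted p = 0.016), and it ranged from 0.33 to 0.56 when each library was left out in turn. The gene lies at chr11:118191887-118246566 on the minus strand of GRCm39. The study singled out Timp2 and Adamtsl5 on these same libraries, so their values here are not independent evidence. With DESeq2 it reported Adamtsl5 at an adjusted p under 0.05 and Timp2 only at a raw p under 0.05.

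Timp3, the matrix-bound inhibitor that also acts on ADAMTS proteases, had 2042, 1883, 1876 and 3210 normalized counts in WT A to D and 1977, 2244, 2249 and 2274 in KO A to D. WT D was higher than all other libraries, and the remaining WT libraries lay below KO B, KO C and KO D. The means were 2253 ± 643 and 2186 ± 140, with a log2 fold change of -0.01 (95% interval -0.38 to 0.36, limma adjusted p = 0.98). Without WT D it was 0.18, and relative to WT A and D only it was -0.23.

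Markers of the retinal pigment epithelium, a layer that may remain attached when the retina is dissected, were highest in the same library for 5 of 6 genes, the exception being Best1 (15.5 in WT D and 33.5 in KO B). Their sum over 6 of 7 listed genes (Rpe65 had no row) was 2355, 3361, 3319 and 6678 normalized counts in WT A to D and 2666, 3300, 3553 and 3891 in KO A to D. Among them, Rgr had 2610 in WT D and 731 to 877 in the other WT libraries, and Lrat had 494 and 119 to 167. Of the 6 markers, 4 had log2 fold changes above 0 and 2 below, and none had an unadjusted limma p under 0.05. The part of these cells in the Timp3 values was not tested. Timp3 (chr10:86136236-86185371, plus strand) also lies inside Syn3, which is transcribed from the opposite strand and shares 1734 exonic bp (21.3% of the Timp3 exons). The Syn3 mean was 409 ± 43.1 in WT and 391 ± 19.2 in the KO.

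**Figure D3:**
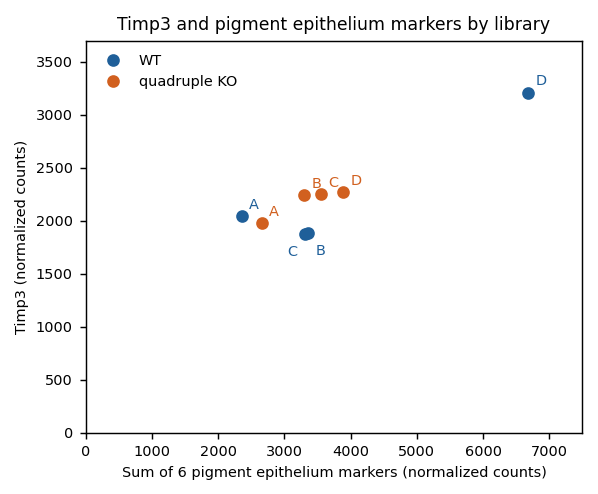
Timp3 (y axis, normalized counts) against the sum of 6 markers of the retinal pigment epithelium (x axis, normalized counts), 1 point per library labelled A to D, WT in blue and KO in orange. WT D is highest for both (3210 and 6678), and KO A is the lowest KO library for both (1977 and 2666). WT A has the lowest marker sum of all libraries (2355) but more Timp3 (2042) than WT B and WT C.

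Timp4 was near the lower limit of the table. It had 7.97, 7.81, 10.5 and 9.35 normalized counts in WT A to D and 27.1, 5.09, 6.75 and 8.04 in KO A to D. Only KO A was high, and the other KO libraries were within or below the range of WT. The log2 fold change of 0.09 had a 95% interval from -0.97 to 1.15 (limma adjusted p = 0.92). Timp4 lies within Syn2 on the opposite strand and shares 1142 exonic bp with it, and the use of strand in the counting was not stated in the sources used here.

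Of the 7 ADAMTS genes whose products cleave lecticans, 3 had higher and 4 had lower means in the KO, and none had an unadjusted limma p under 0.05. Their median log2 fold change was -0.10 with all libraries and 0.03 relative to WT A and D only. Adamts1, a secreted aggrecanase and versicanase, had 678, 739, 705 and 912 normalized counts in WT A to D and 874, 830, 826 and 887 in KO A to D. WT A, WT B and WT C lay below all KO libraries and WT D above them. The means were 759 ± 105 and 854 ± 30.6, a log2 fold change of 0.18 with a 95% interval of -0.05 to 0.41 (limma adjusted p = 0.34, exact permutation p = 0.143).

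Adamts5, the other abundant aggrecanase, lies 53.1 kb from Adamts1 on chromosome 16 (85653061 to 85698716, Adamts1 85590579 to 85600009, both on the minus strand). It had 1600, 1190, 956 and 1549 normalized counts in WT A to D and 1680, 1525, 1640 and 1602 in KO A to D. WT B and WT C were low, while WT A and WT D lay within the KO range. The log2 fold change was 0.31 (95% interval -0.03 to 0.66, limma adjusted p = 0.31, exact permutation p = 0.114) and 0.03 relative to WT A and D only. In the pair of neighbours, WT B and WT C were thus low for Adamts5, whereas for Adamts1 they lay between WT A and WT D.

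Adamts15 and Adamts8 form a similar pair on chromosome 9, 19.9 kb apart and on opposite strands (30810451 to 30833863 and 30853809 to 30875134). Adamts15, which cleaves aggrecan and versican, had 114, 154, 143 and 107 normalized counts in WT A to D and 102, 108, 103 and 106 in KO A to D. Here WT B and WT C were high. The log2 fold change was -0.29 (95% interval -0.61 to 0.03, limma adjusted p = 0.31, exact permutation p = 0.0571) and -0.08 relative to WT A and D only. Adamts8, by contrast, had 23.4, 25.0, 36.0 and 26.9 in WT A to D and 28.2, 28.6, 24.0 and 17.6 in KO A to D, with WT C highest and KO D lowest (log2 fold change -0.18, 95% interval -0.71 to 0.35, limma adjusted p = 0.66).

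The remaining lectican-cleaving genes were of low abundance. Adamts4, the aggrecanase that also cuts brevican, had 22.4, 10.8, 21.0 and 13.4 normalized counts in WT A to D and 32.4, 19.0, 11.3 and 18.5 in KO A to D. The libraries of both genotypes were interspersed (log2 fold change 0.22, 95% interval -0.60 to 1.03, limma adjusted p = 0.73), and without KO A the value was -0.03. Adamts9 had 78.6, 68.1, 75.5 and 41.4 in WT A to D and 71.7, 69.1, 51.3 and 49.6 in KO A to D (log2 fold change -0.10, 95% interval -0.63 to 0.43, limma adjusted p = 0.81). WT D was the lowest library of this gene, and relative to WT A and D only the value was 0.06. Adamts20 had 35.7, 69.0, 40.6 and 33.0 in WT A to D and 31.8, 37.0, 33.8 and 29.0 in KO A to D, where only WT B stood out (log2 fold change -0.37, 95% interval -0.92 to 0.18, limma adjusted p = 0.38).

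**Figure D4:**
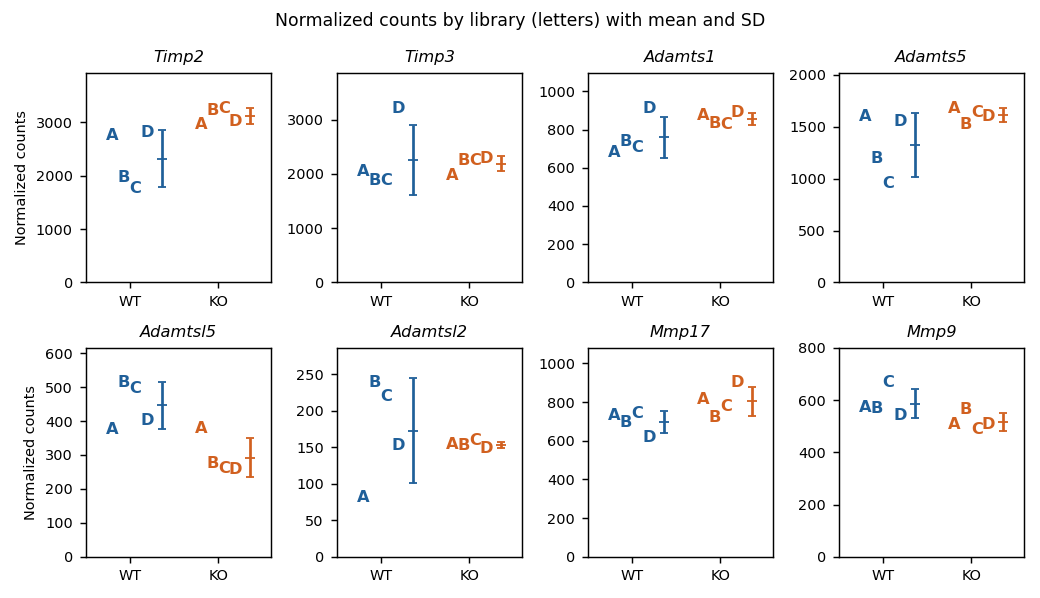
Normalized counts of 8 genes in each library, drawn as the library's letter, with the mean and SD of 4 libraries beside them (WT in blue, KO in orange, axes from 0). WT B and WT C are below WT A and WT D for Timp2 and Adamts5 and above them for Adamtsl5 and Adamtsl2, and WT D is highest for Timp3.

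Of the 9 other ADAMTS genes, 7 had lower and 2 higher means in the KO, with log2 fold changes from -0.43 to 0.31 and no unadjusted limma p under 0.05. Adamts3, a procollagen N-proteinase that also processes the lymphangiogenic factor Vegfc, had 1840, 1752, 2074 and 1557 normalized counts in WT A to D and 1771, 1582, 1705 and 1776 in KO A to D. All KO libraries lay within the range of WT (log2 fold change -0.07, 95% interval -0.29 to 0.14, limma adjusted p = 0.65).

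Adamts10, which binds fibrillin microfibrils, had 280, 251, 256 and 257 in WT A to D and 304, 322, 275 and 227 in KO A to D. KO D was the lowest and KO B the highest of the 8 libraries (log2 fold change 0.10, 95% interval -0.18 to 0.38, limma adjusted p = 0.63). Adamts18, a gene linked to eye development, had 202, 213, 221 and 233 in WT A to D and 203, 205, 200 and 202 in KO A to D. The KO libraries were close together at the lower end of WT (log2 fold change -0.10, 95% interval -0.31 to 0.11, limma adjusted p = 0.52).

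The other 6 genes of this class had at most 118 normalized counts in any library. Adamts12, a protease of cartilage oligomeric matrix protein, was the member with an unadjusted limma p under 0.05 only when WT B and C were left out (log2 fold change 0.65, unadjusted p = 0.046), and 0.31 with all libraries. It had 18.4, 34.6, 19.8 and 13.9 normalized counts in WT A to D and 22.5, 22.0, 24.5 and 36.1 in KO A to D, so that WT B alone overlapped with the KO. Adamts17 ranged from 27.9 in KO C to 98.4 in WT D (log2 fold change -0.43, 95% interval -1.21 to 0.36). The log2 fold changes of Adamts2, Adamts6, Adamts7 and Adamts16 were between -0.35 and -0.03, with limma adjusted p-values from 0.38 to 0.92, and that of Adamts6 was 0.03 relative to WT A and D only.

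The ADAMTS-like proteins share the thrombospondin repeats of the ADAMTS family but lack the protease domain, and several of them bind fibrillin microfibrils. Of the 5 genes, 4 had log2 fold changes below 0 and the log2 fold change of Adamtsl4 was 0.00. Adamtsl5 had 374, 514, 496 and 403 normalized counts in WT A to D and 377, 275, 260 and 256 in KO A to D. KO B, KO C and KO D lay below all WT libraries, and KO A was level with WT A.

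The Adamtsl5 mean was 447 ± 68.6 in WT and 292 ± 57.3 in the KO, the largest negative log2 fold change among the members with -0.62 (standard error 0.16, 95% interval -0.97 to -0.26). It was not called over all genes (limma adjusted p = 0.30, unadjusted p = 0.0033, exact permutation p = 0.0571). The study, however, reported Adamtsl5 as significantly lower in the KO on these same libraries, at a DESeq2 adjusted p under 0.05. The call of this gene thus depends on the method. Leaving out each library in turn gave -0.75 to -0.55, and relative to WT A and D only the log2 fold change was -0.43 (limma unadjusted p = 0.019). The gene lies at chr10:80174944-80184936 on the minus strand.

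Adamtsl2, which regulates fibrillin microfibrils and TGF-beta availability, had 80.7, 239, 219 and 152 normalized counts in WT A to D and 154, 153, 159 and 149 in KO A to D. WT spread over a wide range (SD 71.7), whereas the KO libraries were close together (SD 3.81). Its log2 fold change of -0.05 (95% interval -0.72 to 0.62, limma adjusted p = 0.93) turned to 0.47 relative to WT A and D only. Adamtsl1 had 1058, 905, 815 and 927 in WT A to D and 936, 958, 798 and 835 in KO A to D, with no separation of the genotypes (log2 fold change -0.07, 95% interval -0.30 to 0.16, limma adjusted p = 0.69). Adamtsl3 varied between 25.4 and 103 normalized counts, with WT B highest, and its log2 fold change of -0.44 had a 95% interval of -1.42 to 0.53 (limma adjusted p = 0.54).

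Of the 10 Mmp genes, 6 had higher and 4 had lower means in the KO, and the median log2 fold change was 0.03. All 10 intervals lay within 1 log2 unit of 0. Mmp24, a membrane-type protease of neurons, had 926, 830, 809 and 918 normalized counts in WT A to D and 897, 970, 936 and 910 in KO A to D. WT B and WT C were lowest and the others overlapped (log2 fold change 0.09, 95% interval -0.08 to 0.27, limma adjusted p = 0.47).

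Mmp17, a membrane-type protease with a lipid anchor, had 730, 694, 741 and 616 normalized counts in WT A to D and 811, 722, 778 and 902 in KO A to D. Only KO B overlapped with WT (log2 fold change 0.21, 95% interval -0.01 to 0.43, limma adjusted p = 0.30, exact permutation p = 0.0857). Relative to WT A and D only the value was 0.26 (limma unadjusted p = 0.031). Mmp9, a gelatinase known from studies of retinal injury, had 571, 567, 668 and 540 in WT A to D and 505, 566, 487 and 508 in KO A to D, where KO B lay within WT and the other KO libraries below it (log2 fold change -0.18, 95% interval -0.39 to 0.03, limma adjusted p = 0.32, exact permutation p = 0.0571).

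Mmp2, the other gelatinase and the protease whose activation involves Timp2 and Mmp14, had a mean of 78.4 ± 15.7 in WT and 100 ± 21.3 in the KO. Its log2 fold change was 0.34 (95% interval -0.10 to 0.78, limma adjusted p = 0.34). The lncRNA Gm45472 overlaps it on the opposite strand over 860 exonic bp (24.3% of the Mmp2 exons) and had 108 ± 18.3 and 85.2 ± 10.8 normalized counts. Mmp14 had 416 ± 48.8 in WT and 431 ± 36.3 in the KO, a log2 fold change of 0.05 (95% interval -0.19 to 0.30, limma adjusted p = 0.78). Relative to WT A and D only, the log2 fold change was 0.40 for Mmp2 and -0.07 for Mmp14. The remaining Mmp11, Mmp15, Mmp16, Mmp23 and Mmp28 had log2 fold changes from -0.25 (Mmp28) to 0.11 (Mmp11) and limma adjusted p-values from 0.43 to 0.96. Mmp28 was highest in WT B (194) and WT C (159), and relative to WT A and D only its log2 fold change was 0.06, while that of Mmp16 moved from 0.01 to -0.03.

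**Figure D5:**
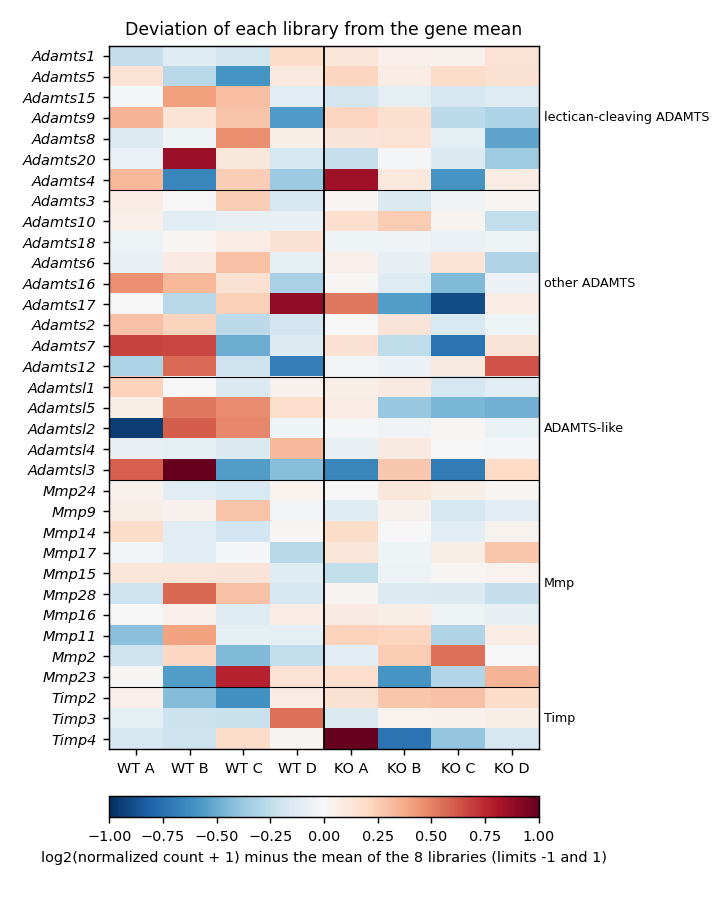
Deviation of log2(normalized count + 1) of each library from the mean of the 8 libraries, for the 34 genes by class (colour limits -1 and 1). WT B and WT C share high values for Adamtsl5, Adamtsl2 and Adamts15 and low values for Timp2 and Adamts5, and no class changes colour as a whole between the genotypes.

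Genes around the proteases were taken as lists. Of 9 tested substrates of ADAMTS and Mmp proteases, 3 were called, all lower in the KO (limma adjusted p under 0.05). This compares with 0.437% of all genes tested, but the list includes the targeted Bcan, Ncan and Tnc. The called genes were Bcan and Ncan, whose loss follows from the KO itself, and Vwf (von Willebrand factor, cut by Adamts13, which had no row). Vwf had 229, 230, 274 and 326 normalized counts in WT A to D and 56.2, 53.5, 36.9 and 70 in KO A to D (log2 fold change -2.29, 95% interval -2.75 to -1.83, limma adjusted p = 5.4e-04). No KO library reached WT. The 7 endothelial markers summed to 8913 to 12177 in WT and 10572 to 12159 in the KO, of which Kdr made up 91.2% in WT, and their log2 fold changes ranged from -0.25 to 0.42. Their part in the Vwf values was not tested. The substrate Fbn2 (fibrillin-2) had 71.7 ± 18.1 and 50.0 ± 7.30 normalized counts (log2 fold change -0.49, limma adjusted p = 0.30). Versican (Vcan), a lectican that was not targeted, had 69.5 ± 17.9 and 89.9 ± 41.6 (limma adjusted p = 0.56).

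Of 6 genes that activate the proteases or control plasmin, none was called, compared with 0.437% of all genes tested. Before adjustment, 1 (16.7%) had a limma p under 0.05, about the share of all genes tested (16.6%). This was Pcsk5, a proprotein convertase that removes prodomains, with 392, 526, 450 and 355 normalized counts in WT A to D and 295, 279, 260 and 267 in KO A to D. No KO library reached WT (log2 fold change -0.63, 95% interval -0.92 to -0.34, limma adjusted p = 0.14). It was called without WT D (log2 fold change -0.72, limma adjusted p = 0.048) and with weights per library (log2 fold change -0.50, limma adjusted p = 0.019). Furin, another convertase of this kind, had 4423 and 4111 in WT B and WT C and 1500 to 1776 in the other 6 libraries. Besides Pcsk5, the genotypes did not overlap for Serpine2 (log2 fold change -0.14, limma adjusted p = 0.34). Of all genes tested, 9.74% did not overlap.

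Of 11 other inhibitors and modulators, 9 had lower means in the KO and none was called, compared with 0.437% of all genes tested. Before adjustment, 1 (9.09%) had a limma p under 0.05, which is below the 16.6% of all genes tested. Sdc1, the heparan sulfate proteoglycan syndecan-1, had 28.6, 32.1, 22.0 and 19.4 normalized counts in WT A to D and 15.8, 8.85, 18.3 and 13.4 in KO A to D. The genotypes did not overlap for Sdc1, as for 9.74% of all genes tested (log2 fold change -0.83, 95% interval -1.47 to -0.19, limma adjusted p = 0.30). Reck, a membrane-anchored inhibitor of Mmp proteins, had 668 ± 112 in WT and 698 ± 21.0 in the KO (log2 fold change 0.08, 95% interval -0.20 to 0.35). Pofut2 and B3glct, whose products glycosylate the thrombospondin repeats of the ADAMTS family, were both not called (log2 fold changes -0.20 and -0.05, limma adjusted p = 0.37 and 0.82).

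Cell type markers other than those of the pigment epithelium were compared as sums. Markers of Mueller glia summed to 110867 to 166933 normalized counts in WT, and to 109609 to 123728 in the KO. Glul made up 79.0% of this sum in WT, and WT B and WT C lay above WT A and WT D for 3 of the 6 genes and below them for 2 (Slc1a3 and Kcnj10). Fibroblast and sclera markers had 708 to 976 in WT and 567 to 745 in the KO, and pericyte and smooth muscle markers 1332 to 1900 and 1250 to 1748. Microglia markers reached 553 to 814 and 603 to 647, and rod markers 1251879 to 1667778 and 1674060 to 1809594. Lens markers were scattered within both genotypes (57.3 to 1411 and 29.5 to 1096), with 3 of 5 listed genes in the table. No gene of these lists was called, and the part of these cells in the values of the members was not tested.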

How the data were processed

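Total RNA of 4 WT and 4 KO retina samples was sequenced by the authors from directional libraries. Per the labels and the study's methods, the tools were Trim Galore 0.6.7 for trimming, STAR 2.7.9a for alignment to GRCm39 and Salmon 1.5.2 for quantification, and the deposited values are normalized counts from DESeq2 1.32.0 in R 4.1.1. The authors' annotation release and use of strand are not given in the sources used here. The deposited fold changes and p-values of the authors were not used. Between 49.3% and 74.2% of low values per library lay within 0.1 of whole steps, which did not allow whole reads to be restored for a count model.

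Genes with a mean of at least 10 were tested on log2(normalized count + 1) with limma 3.58.1 in R 4.3.3 (lmFit, eBayes with trend, no covariates), with Benjamini-Hochberg adjustment over all 17636 genes. Fold changes are on this scale, which understates those of low genes. Exact permutation tests were two-sided (scipy 1.17.1, Python 3.11.15). GENCODE annotation of GRCm39 gave positions and canonical transcripts. The steps were run on simulated data in which both genotypes had the same spread. The real libraries differ in this, with a median coefficient of variation over all genes tested of 18.3% in WT and 7.26% in the KO. The simulation therefore does not cover this unequal spread. Nothing says that letters A to D pair libraries of the genotypes, and deviations of libraries with the same letter correlated by -0.11 to 0.10, so no block was used. Whether each library came from 1 mouse or from pooled retinae is not certain, and p-values measure the spread between these samples only.

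The members, lists and markers were chosen with earlier results of these data known. Values in all libraries were given by rule for Timp genes, lectican-cleaving ADAMTS genes, members with an unadjusted p under 0.05, and the 3 most abundant genes of each other class. Adamts12, Adamts17, Adamtsl3, Mmp2, Mmp14, Vcan, Furin, Reck and the overlapping genes were added after their values were seen.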

Additional observations from a re-analysis of the deposited data

Results flagged for a closer look

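A library was set apart where its gap to the nearest of the other 3 libraries of its genotype was a larger share of the group's range than Dixon's 95% critical value. The rule was applied to 42 genes, which were the 34 members and Bcan, Ncan, Tnc, Tnr, Fbn2, Vwf, Pcsk5 and Sdc1. It held for 6 of 84 groups (7.14%), which is near the 1 in 20 that chance gives. All 6 were groups of members, so the share among the members alone is higher. WT D was high for Timp3 (3210 normalized counts, the others 1876 to 2042) and for Adamtsl4 (173, the others 125 to 131), and low for Mmp15 (482, the others 571 to 575). KO A was high for Adamtsl5 (377, the others 256 to 275) and Timp4 (27.1, the others 5.09 to 8.04), and low for Timp3 (1977, the others 2244 to 2274). No cause was tested for these values.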

How the results depend on the processing

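No member was called under any of the 18 alternatives, which included the letters as a replicate block (19 members were tested with a minimum mean of 100, and 33 without KO A). With this replicate block, 0 members were called and 2 had an unadjusted p under 0.05, and no call of a named gene changed. The number of members with an unadjusted p under 0.05, which was 2, was 6 with array weights (WT B weighted 0.164 and WT C 0.156) and 4 relative to WT A and D only, and lay between 2 and 6 when each library was left out, with 6 without WT D. The median log2 fold change of the members stayed between -0.07 and -0.01. Of 478 values for 27 named genes, 460 kept their direction and their side of the threshold, 2 became called (Pcsk5) and 16 reversed in 7 genes. Reversed log2 fold changes relative to WT A and D only were 0.01 for Adamts3, 0.06 for Adamts9, 0.47 for Adamtsl2 and 0.25 for Tnc. With array weights they were -0.02 for Adamts4, 0.60 for Adamtsl2 and 0.13 for Tnc, and with quantile normalization 0.01 for Timp3 and -0.07 for Timp4. Leaving out each library gave -0.03 to 0.45 for Adamts4, -0.37 to 0.14 for Adamtsl2, -0.08 to 0.18 for Timp3 and -0.23 to 0.05 for Tnc. The cause was not tested. Over all 34 members, 7 log2 fold changes reversed relative to WT A and D only, which adds Adamts6 (0.03), Mmp14 (-0.07), Mmp16 (-0.03) and Mmp28 (0.06) to the members above. WT B and WT C had the lowest estimated depth, and its part in these values was not tested.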
